A study of Drosophila melanogaster with 3 samples.

Results

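The regions described here are the 500 strongest binding peaks of Bab1 in adult female Drosophila melanogaster. They were chosen by the signal value of each peak, as the 500 highest of 6896 peaks in the authors' list of reproducible peaks, which were kept by their irreproducible discovery rate (IDR) between replicates. The series has 1 group: whole adult females of a transgenic line (strain bab1-RA (bab1-s)-GFP, age unknown) that stably express Bab1 with GFP at its C terminus, sampled as 3 biological replicates. Chromatin was sheared by sonication, precipitated with an antibody against GFP and sequenced (ChIP-seq), and the deposited lists give 30000 peaks for each replicate and for the replicates pooled. The comparison throughout is between the 500 strongest peaks and the other 6396 IDR peaks. Untagged flies were not analysed here, so binding by Bab1 and background of the precipitation cannot be told apart, and whole flies mix all tissues. Read counts were not used here, so depth is unknown.

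Bab1 (Bric-a-brac 1) belongs to the BTB family of transcription factors and binds DNA through a pipsqueak-type domain together with a conserved neighbouring motif. It is known for patterning legs and antennae, for forming the terminal filaments of the ovary and for repressing pigment genes in the female abdomen. In vitro, Bab proteins are known to bind A/T-rich DNA with TA or TAA repeats. A peak's summit is the base at which its signal is highest, and sequence was read in windows of 101 bp centred on it.

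Windows of 8 of the strongest peaks are shown for the A/T-rich composition that most of the 500 shared. They are given 5′ to 3′ on the plus strand of dm6 (sequence from RefSeq), named by the gene with the nearest transcription start site (TSS), with unbroken runs of at least 6 A or T in capitals:
CG11050, chr2L:6612641-6612741: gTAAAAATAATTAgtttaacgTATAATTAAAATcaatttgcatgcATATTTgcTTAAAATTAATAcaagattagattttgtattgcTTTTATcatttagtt
Sptr, chrX:8464514-8464614: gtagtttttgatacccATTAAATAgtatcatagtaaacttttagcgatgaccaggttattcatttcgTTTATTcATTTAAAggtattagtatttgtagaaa
Ugalt, chrX:2703837-2703937: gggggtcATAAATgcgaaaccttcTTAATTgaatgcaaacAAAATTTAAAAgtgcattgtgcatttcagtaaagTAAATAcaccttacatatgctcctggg
Gapdh2, chrX:15867933-15868033: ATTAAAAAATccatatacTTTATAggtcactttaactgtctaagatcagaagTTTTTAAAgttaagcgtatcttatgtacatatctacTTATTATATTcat
CG14100, chr3L:19590565-19590665: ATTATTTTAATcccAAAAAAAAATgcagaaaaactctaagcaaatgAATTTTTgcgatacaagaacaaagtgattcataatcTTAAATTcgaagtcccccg
CG32772, chrX:4910322-4910422: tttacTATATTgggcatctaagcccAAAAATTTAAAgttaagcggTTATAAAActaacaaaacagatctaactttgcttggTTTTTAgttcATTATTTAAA
CG11309, chr3L:21304520-21304620: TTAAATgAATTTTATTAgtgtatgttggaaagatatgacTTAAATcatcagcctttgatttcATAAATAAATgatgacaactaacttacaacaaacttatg
mRpS10, chr3R:15229490-15229590: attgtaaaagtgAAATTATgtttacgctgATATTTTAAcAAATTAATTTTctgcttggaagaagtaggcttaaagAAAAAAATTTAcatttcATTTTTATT

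Between 21 and 48 of the 101 bases in these windows lay in such runs. G and C made up 18.8% of the window at CG11050 and 35.6% at Ugalt, the lowest and highest of these 8. Windows of the same size 500 bp to either side of the same summits (the flanks) held between 41.1% and 52.0% G and C. A minority of the 500 looked different. The windows of 3 strong peaks with over 45% GC hold no run of 6 A or T:
lawc, chrX:8409977-8410077: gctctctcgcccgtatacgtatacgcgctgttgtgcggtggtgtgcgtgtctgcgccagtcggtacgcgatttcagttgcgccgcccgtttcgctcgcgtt
Syp, chr3R:20778551-20778651: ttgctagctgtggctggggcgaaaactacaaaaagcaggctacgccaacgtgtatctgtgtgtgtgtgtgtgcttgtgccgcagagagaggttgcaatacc
moody, chrX:2050235-2050335: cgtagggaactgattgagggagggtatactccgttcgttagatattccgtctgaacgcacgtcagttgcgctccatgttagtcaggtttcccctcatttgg

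The lawc window had 62.4% GC against 47.5% in its flanks, the Syp window 52.5% against 44.6% and the moody window 50.5% against 43.1%. Syp encodes an RNA-binding protein and moody a receptor of the blood-brain barrier. The lawc peak lies in a complex locus shared with Trf2, which encodes a factor related to TATA-binding protein. Some windows held the DNA replication-related element (DRE, TATCGATA, in capitals below), which is bound by DREF at many promoters of genes active in all cells:
eEF1gamma, chr3R:29220083-29220183: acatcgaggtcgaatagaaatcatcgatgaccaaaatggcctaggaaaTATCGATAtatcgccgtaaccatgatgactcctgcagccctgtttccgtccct
RpL34a, chr3R:26059293-26059393: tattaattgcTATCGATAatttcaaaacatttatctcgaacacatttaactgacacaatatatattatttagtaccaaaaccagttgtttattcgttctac

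Signal fell steeply with rank. The 500 values that chose the members ran from 872.8 to 9886.6 with a median of 1217.7, while the other IDR peaks ran from 201.9 to 871.9 with a median of 307.7. The strongest member had 11.3 times the signal of the weakest, and the 500 held 25.1% of the summed signal of all IDR peaks. The threshold cut a continuous slope. Just inside it lay the promoter of CG14711 (875.2), an intron of lncRNA:CR43963 (874.2) and the promoter of sta (872.8), a ribosomal protein gene. Just outside lay an intron of CG8034 (871.9), the promoter of tzn (871.9) and the promoter of Rtnl1 (871.6). Members were 409.5 bp wide at the median (272 to 1574 bp), against 303 bp for the other IDR peaks. Width and signal are not independent measures of a peak.

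The order at the top was close to the same in every replicate. The intronic peak of CG11050 (FBgn0031836) and the promoter peaks of Sptr (FBgn0014032), Ugalt (FBgn0024994) and Gapdh2 ranked 1, 2, 3 and 4 in the pooled data and in each replicate's own list. Sptr encodes sepiapterin reductase, Ugalt a nucleotide sugar transporter and Gapdh2 the glycolytic enzyme glyceraldehyde-3-phosphate dehydrogenase. The promoter peak of CG14100 ranked 5 in the pooled data, 5 in replicates 1 and 2 and 8 in replicate 3. Signal scales differ between lists, so values are given per list and not averaged. The CG11050 peak (chr2L:6612249-6613129) had signal values of 3289, 4548 and 2016 in replicates 1, 2 and 3. The Sptr peak (chrX:8464218-8464826) had 2895, 4063 and 1984, and the Ugalt peak (chrX:2703621-2704105) had 2343, 3068 and 1528. For Gapdh2 (chrX:15867740-15868324) the values were 1919, 2653 and 1270. Within each list, these 4 values fell in the same order.

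Of the 500 members, 490 (98.0%, exact 95% interval 96.4% to 99.0%) had their summit inside one of the 6896 strongest peaks (the top list) of all 3 replicates. In the other IDR peaks this held for 53.8% (52.6% to 55%), and over all 6896 for 57%. Pooled and replicate lists come from the same reads, so this describes the members and is not a test. All 10 exceptions were missing from replicate 3 alone. They lay at Dad1, Hsc70-5, Fhos, Hrd3, CG8892, CG5958, pre-mod(mdg4)-E, Dhc64C, CG6959 and Msp300, at pooled ranks 222 to 491. Replicate 3 did have a peak overlapping each, at ranks 384 to 1259. Those peaks were only 94 to 202 bp wide, and their edges lay 1 to 69 bp from the pooled summit. Counting any overlap, all 500 members were matched in all 3 top lists, as were 61.5% of the other IDR peaks.

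Summits lay close together as well. The replicate summit lay within 50 bp of the member's summit for 95%, 97.0% and 91.4% of members in replicates 1, 2 and 3. The other IDR peaks gave 71.4%, 78.9% and 66.2%. Of the members, 440, 457 and 416 were also among the 500 strongest of replicates 1, 2 and 3, and 348 (69.6%) were in all 3. Neighbouring summits blur some of these matches: 42 members shared their interval with another IDR peak that has its own summit, and the 500 members lay on 498 distinct intervals. One such member, the second summit at Hmg-2 (rank 418), overlapped replicate peaks at ranks 50, 37 and 39 that also matched the first (rank 38).

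The 5 members with the widest spread of replicate ranks were RpS10b, Hsp83, sta, an intergenic peak near Gr93d, and Sod3. RpS10b ranked 900, 197 and 155 in replicates 1, 2 and 3. Hsp83, a heat shock chaperone gene, ranked 313, 136 and 55. The ribosomal protein gene sta ranked 1294, 506 and 239. Sod3 ranked 995, 486 and 198, and the peak near Gr93d 363, 150 and 807. Of these 5, 4 ranked worst in replicate 1 and best in replicate 3, an order that the median ranks of ribosomal protein promoters shared.

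**Figure D1:**
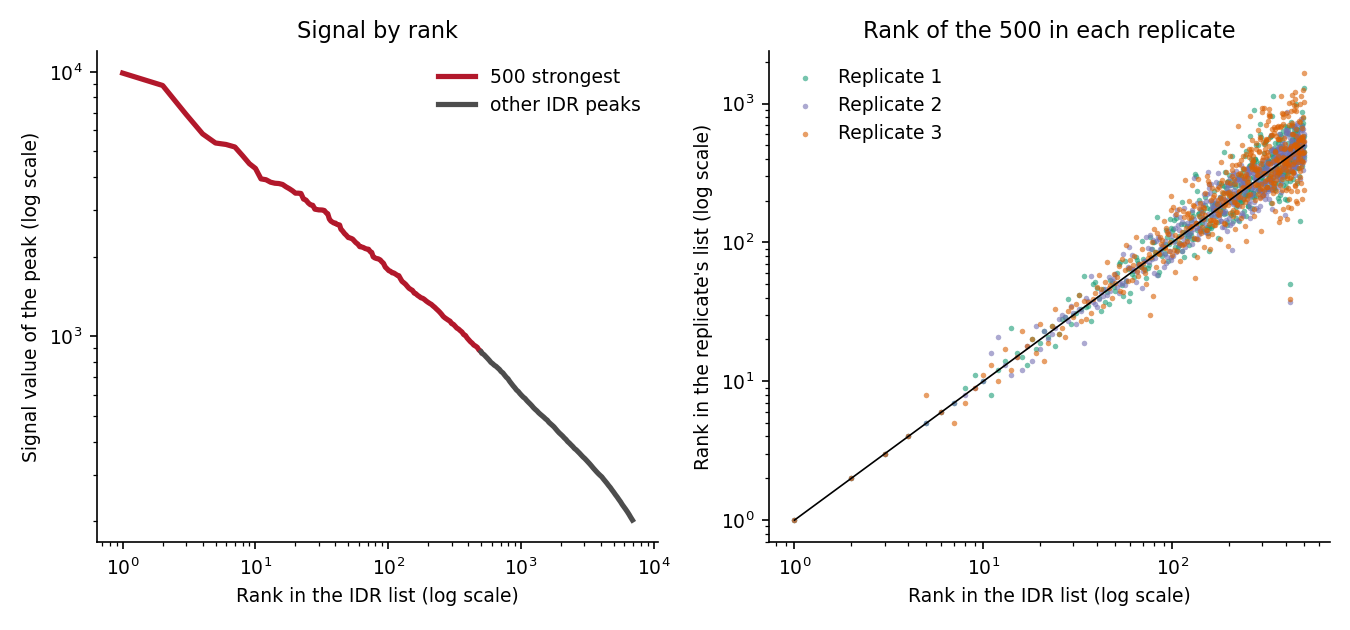
Left, signal value of IDR peaks against rank, both on log scales, with the 500 strongest in red and the other IDR peaks in grey. Right, rank of each of the 500 in the list of each replicate (best overlapping peak) against its pooled rank, both on log scales, with the line of equal ranks; the points follow the line, with a wider scatter at higher rank numbers, and the isolated points at pooled rank 418 are the second summit at Hmg-2.

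By position, the 500 strongest peaks were spread over the same kinds of places as the rest. Promoters were defined as the 1000 bp before a TSS and the 100 bp after it. Promoters held 365 members (73.0%, 68.9% to 76.8%), against 72.7% of the other IDR peaks, and 72.7% over all 6896. With promoters narrowed to 250 bp on each side the order turned, with 59.8% of members and 66.5% of the others. Introns held 102 members (20.4%) against 19% of the others, and 21 members (4.2%) lay between genes, against 4.22%. No member had its summit in a coding exon, against 41 of the other 6396 (0.641%). A count of 0 of 500 allows a share of up to 0.735% by the exact interval, so this difference was not detectable at this number of peaks. The 3 replicates' own lists gave the promoter share as 73.7% ± 0.503 in their 500 strongest peaks and 70.7% ± 0.604 in the rest of their top lists (mean ± SD, n = 3), higher in 3 of 3. Position and sequence are fixed at a locus, and most members recur in these lists. Agreement between replicates in such measures, here and below, therefore partly restates that overlap. An exact sign-flip permutation test over 3 replicates (two-sided) cannot give a p below 0.25, so this test cannot reach 0.05 here. That smallest p, 0.25 by the exact test, was reached by 13 of the 14 measures compared in this way (Benjamini-Hochberg adjusted 0.269), promoter share, offset and GC among them. The share in introns gave p = 0.5 in the same exact test.

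The strongest members in introns were those of CG11050 (signal 9886.6), CG32772 (5195.9), norpA (4311.3), a phototransduction gene that encodes a phospholipase C, CG12769 (3790.2) and Tlk (3780.2), a Tousled-like kinase. Of the 102 intronic members 50 (49%, 39.0% to 59.1%) lay 101 to 2000 bp downstream of the nearest TSS. The other intronic IDR peaks gave 39.4% (36.6% to 42.2%), and these intervals overlap. Between genes, the strongest were nearest to CG31668 (3613.0), CG13323 (2649.3), DNAlig3 (1582.3), CycB (1365.8) and Gr93d (1190.7). The 3 members in 3′ untranslated regions lay in stas (2510.4), Lsd-2 (1494.3, nearest to the TSS of dob) and CG1888 (1010.8). The 4 in 5′ untranslated regions lay in baz (2133.4, nearest to the TSS of lncRNA:CR44026), spen (1285.6 and 892.3) and Fbl6 (988.9). The 5 in other exons lay at lncRNA:CR44619 (1493.4 and 957.2), lncRNA:CR46035 (1344), lncRNA:CR46102 (1153.3) and lncRNA:CR45542 (1050.9).

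Within promoters, the summits of the 500 lay farther upstream. The 365 promoter members had their summit a median of 125 bp upstream of the nearest TSS, and the other 4649 promoter peaks 32 bp upstream. The stretch 101 to 200 bp upstream held 134 promoter members (36.7%, 31.8% to 41.9%), against 15.4% (14.3% to 16.4%) of the others. The next 100 bp upstream held 13.2% of promoter members and 4.41% of the others. The last 50 bp before the TSS held 6.03% and 22.4%, and the TSS with the 100 bp after it 12.3% and 28.9%. In the stretch from 51 to 100 bp upstream both sets had 14.5%. The 500 strongest of replicates 1, 2 and 3 had medians of -123.5, -126 and -115 bp (negative is upstream), and the rest of their top lists -36, -35 and -29 bp. The groups did not overlap, and the mean difference was -88.2 ± 2.57 bp (SD, n = 3). The offset changed along the ranking, with medians of -132 bp for ranks 1 to 100 and -93.5 bp for ranks 401 to 500. The 500 peaks ranked next after the members, down to rank 1000, had a median of -99 bp. The median was -64 bp for ranks 1001 to 2000 and -11 bp for ranks 5001 to 6896.

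**Figure D2:**
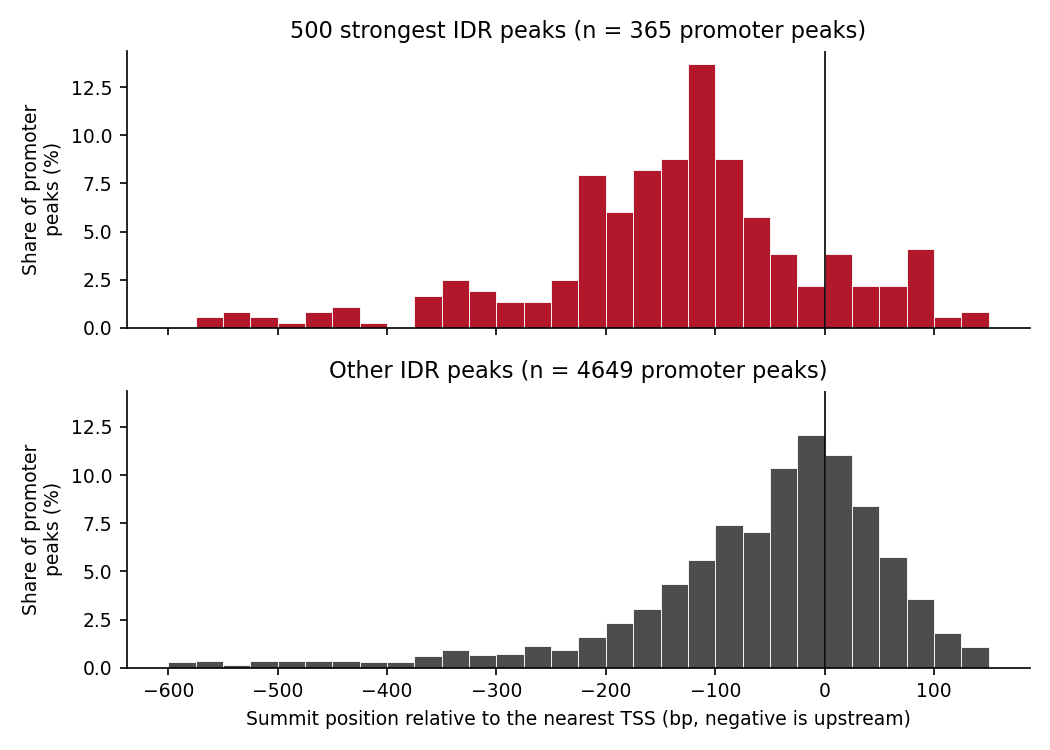
Share of promoter peaks per 25-bp bin by summit position relative to the nearest TSS, for the 500 strongest IDR peaks (top, n = 365 in promoters) and the other IDR peaks (bottom, n = 4649); peaks outside the plotted range are counted in n. The upper histogram is highest around 100 to 200 bp upstream of the TSS (median 125 bp) and the lower one at the TSS itself (median 32 bp upstream).

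Summits of the 500 were rich in A and T. Their 101-bp windows held 31.3% GC on average (SD 9.77 over peaks), against 39.3% (SD 10.3) in the other IDR peaks, while the flanks held 44.4% and 43.4%. The drop was narrow: in 21-bp steps the mean GC of members was lowest at 30.5%, and 100 bp to either side it was back at 41.7%. In the other IDR peaks the lowest value was 39.2%, and it was 40.2% at 100 bp. Windows under 25% GC made up 28.8% of members (24.9% to 33.0%) and 9.32% of the others. GC at the summit was at or above that of the flanks in 80 members (16.0%), in 39.3% of the others and in 37.6% of all IDR peaks.

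The replicates' own lists differed in the same direction. Of the members, 440, 457 and 416 were among the 500 strongest of replicates 1, 2 and 3, so these lists are not independent of the members. The 500 strongest of replicates 1, 2 and 3 averaged 31.1%, 30.9% and 33.6% GC, and the rest of their top lists 39.9%, 38.8% and 40.6%. The difference was -7.87 ± 0.970 percentage points (SD, n = 3), lower in 3 of 3.

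GC also changed along the ranking. It was 29.5% for ranks 1 to 100 and 33.3% for ranks 401 to 500. The 500 peaks ranked next after the members, down to rank 1000, averaged 33.8%, close to the last 100 members. GC was 37.5% for ranks 1001 to 2000 and 40.7% for ranks 5001 to 6896. Pooled peaks outside the IDR list averaged 42.1%. Across the 6896 peaks Spearman's rank correlation between signal and GC was -0.22, and within the 500 it was -0.15. These peaks come from the same libraries, and the effect of GC on amplification and mapping was not tested.

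GC was also compared at fixed positions. With the summit 101 to 200 bp upstream of the TSS, 134 members averaged 27.6% (SD 7.82) and 714 other IDR peaks 32.5% (SD 10.4). Windows centred 125 bp upstream of all protein-coding TSSs averaged 37.9% (n = 19269). With the summit 51 to 100 bp upstream the averages were 33.7% (n = 53) and 37.5% (n = 673), and in the last 50 bp 40.1% (n = 22) and 44.8% (n = 1042). In introns the values were 29.7% for members and 36.2% for the others, and between genes 34.1% and 38.5%. Members were lower in each of these classes. In 5′ and 3′ untranslated regions, with only 4 and 3 members, the averages were 46.5% against 44.7% and 43.2% against 37.9%, higher in members.

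**Figure D3:**
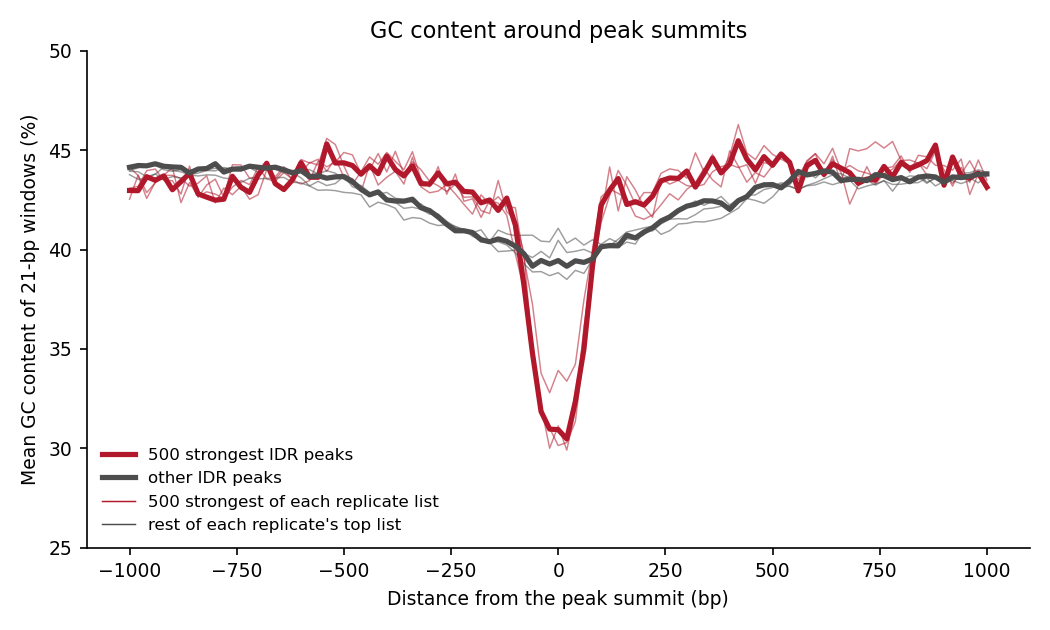
Mean GC content of 21-bp windows against distance from the summit, for the 500 strongest IDR peaks (thick red), the other IDR peaks (thick grey), and the corresponding parts of each replicate's own list (thin lines). The red lines drop to between 29.9% and 32.8% at the summit and return to the level of the surroundings within about 100 bp, while the grey lines do not go below 38.5%.

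The A/T content was made of longer runs as well. The longest unbroken run of A and T had a median of 11 bp in members, 8 bp in the other IDR peaks and 7 bp in the flanks of members. The step TA occurred at 0.904 times the rate its base composition gives in members, 0.825 times in the other IDR peaks and 0.747 times in the flanks. The 500 strongest of replicates 1, 2 and 3 had 0.903, 0.900 and 0.900, against 0.824, 0.825 and 0.805 in the rest. Bases masked as repetitive or simple sequence in the reference made up 26.3% of member windows and 17.6% of the others. The kind of masked sequence was not separated, and complexity was not measured.

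Among all words of 6 bases that at least 25 members held (both strands, 514 words), the word with the highest ratio of members to flanks was TTTAAA. It lay in 136 member windows (27.2%), in 14.3% of the other IDR peaks and in 7% of flanks, a ratio of 3.89 to the flanks. Next came TCTTAA, which lay in 71 member windows (14.2%) and in 7.21% of the others and 3.8% of flanks. The word AAGTTA lay in 57 member windows (11.4%), 7.58% of the others and 3.2% of flanks. The fourth, TACTAA, lay in 50 member windows (10%), in 5.38% of the others and in 2.9% of flanks. The fifth was CTTAAA with 93 member windows (18.6%), 10.6% of the others and 5.4% of flanks. Of these 5 words only TTTAAA is made of A and T alone, and 7 of the 20 highest ratios belonged to such words. Since a word had to lie in at least 25 members and no minimum was set in the flanks, these ratios are a description that the choice of words favours.

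TAATAA, the repeat known from Bab binding in vitro, lay in 24.6% of member windows (20.9% to 28.6%). It lay in 14% (13.2% to 14.9%) of the other IDR peaks, in 10.3% of flanks and in 17.1% of windows upstream of all coding TSSs. Among the other IDR peaks, the 500 ranked next after the members held TAATAA in 23.4%, close to the members. In the replicates it lay in 23.2% ± 2.31 of the 500 strongest and 13.4% ± 1.40 of the rest (SD, n = 3), higher in 3 of 3. In 50-bp bins it occurred in 16% of members at the summit, in 9.8% and 11.2% at 50 bp to the left and right and in 4.2% and 7.6% at 500 bp. The other IDR peaks had 7.58% at the summit, and 5.63% and 5.97% at 500 bp. Other A/T words had the same direction. All 36 words of 6 bases made of A and T had a higher share in members than in flanks, at ratios of 1.64 to 3.89, and TAATAA stood at place 31 of 36 with a ratio of 2.39. The TA repeat TATATA lay in 14% of members, 7.46% of the others and 5.3% of flanks, a ratio of 2.64. In the replicates TATATA lay in 12.6% ± 1.06 of the 500 strongest and 7.42% ± 0.486 of the rest (SD, n = 3), higher in 3 of 3. The TATA box lay in 19% of members, 10.3% of the others, 7.5% of flanks and 12.5% of coding upstream windows. Its strongest carriers were at norpA and Tlk, both in introns. The 5 strongest members with TAATAA were at Gapdh2, CG11309, CG5611, CG1888 and CG12769.

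Patterns typical of promoters active in most cells were less frequent in the members than in the other IDR peaks. DRE lay in 8 members (1.6%, 0.693% to 3.13%), in 4.63% (4.13% to 5.17%) of the other IDR peaks and in 0.4% of flanks. All 8 lay in promoters: Alg3 at rank 136, eEF1gamma at 290, RpL34a at 333, CG14805 at 340, CG1827 at 373, Dbct at 377, RpS29 at 455 and Roc2 at 458. None of the 100 strongest peaks held it. The core of Motif 1 (GGTCACAC), bound by M1BP, lay in 1 member (0.2%), the promoter of RpL7, and in 3.30% of the others. Within promoters alone the shares were 2.19% and 6.19% for DRE and 0.274% and 4.52% for Motif 1. The 500 peaks ranked next after the members, in all classes, held DRE in 2.6% and Motif 1 in 1%. In the replicates DRE lay in 1.93% ± 1.40 of the 500 strongest and 4.15% ± 0.357 of the rest, and Motif 1 in 0.4% ± 0.529 and 3.23% ± 0.145 (SD, n = 3), both lower in 3 of 3. Upstream windows of all coding TSSs held DRE in 1.25% and Motif 1 in 0.851%. Wider windows changed the level: over whole peaks DRE lay in 7% of members and 10.2% of the others, and Motif 1 in 4.2% and 8.86%.

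The core site of the insulator protein BEAF-32 (CGATA, which DRE contains) lay in 14% of members, 23.7% of the others and 16.0% of coding upstream windows. The E-box CAGCTG lay in 2%, 8.24% and 4.78% of the same sets, and core promoter Motif 7 in 3.4%, 8.80% and 4.01%. GAGAG, bound by GAGA factor and by Pipsqueak, lay in 8.2% of members, 12% of the others and 16.7% of member flanks. Among the others, it lay in 6.4% of the 500 peaks ranked next after the members. The lower share in members held near the summit only. In 50-bp bins GAGAG lay in 3.8% of members and 6.50% of the others at the summit. At 150 bp to the left and right it lay in 17.6% and 16.6% of members, against 8.80% and 9.02% of the others. In the replicates GAGAG lay in 8% ± 0.529 of the 500 strongest and 12.8% ± 1.18 of the rest, and CAGCTG in 2.53% ± 1.29 and 8.35% ± 0.198 (SD, n = 3), lower in 3 of 3 for both. The CCAAT box (18.6% against 18%) and the GATA site TGATAA (7.4% against 7.19%) differed by less than their counting error. CTCF's core AGGTGGCGC lay in 2 members (jp and Uhg4), the ewg palindrome GCGCATGC in jp and Motif 6 in mRpL41. Their shares of 0.4%, 0.2% and 0.2% compare with 0.407%, 0.297% and 0.704% of the other IDR peaks and 0 of the flanks. A matching word is a description of the sequence, not of a bound factor.

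**Figure D4:**
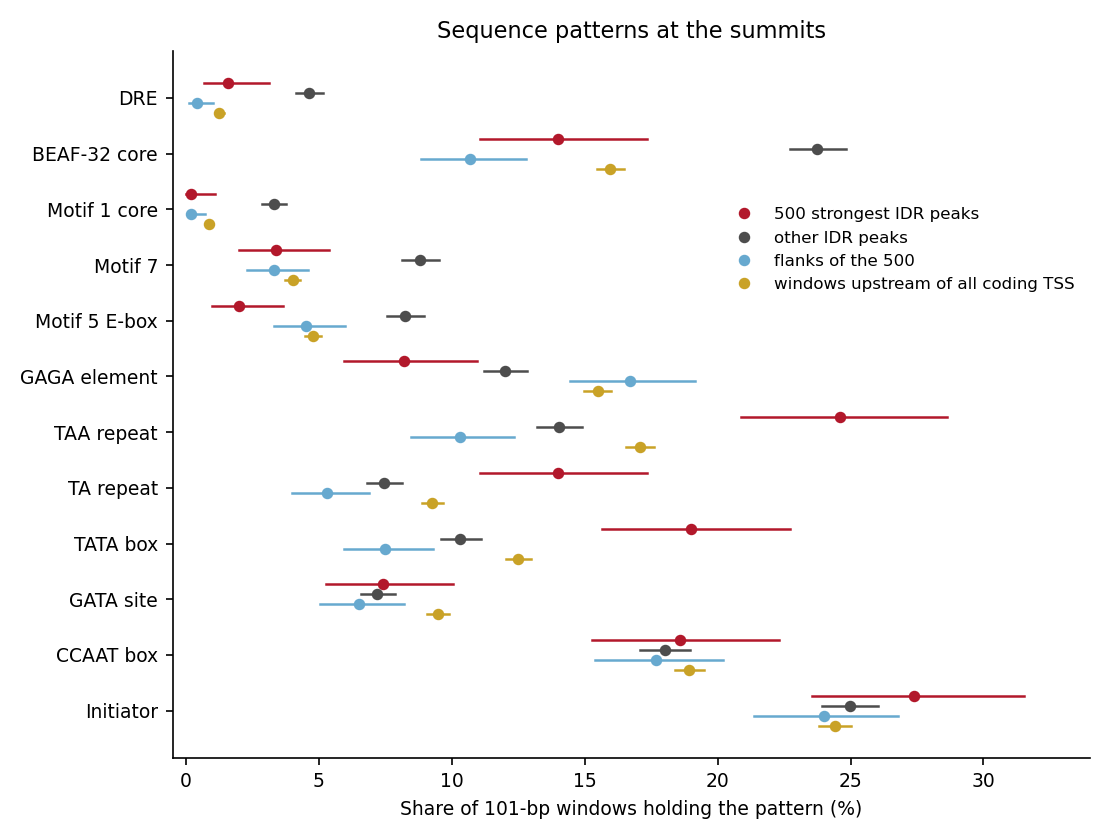
Share of 101-bp windows holding each pattern in the 500 strongest IDR peaks (red), the other IDR peaks (grey), the flanks of the 500 (blue) and windows upstream of all protein-coding TSSs (yellow), with exact 95% intervals that cover counting error only. TAA repeat, TA repeat and TATA box are highest in the 500; DRE, BEAF-32 core, Motif 1 core, Motif 7 and the Motif 5 E-box are highest in the other IDR peaks.

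The 51 members with over 45% GC (10.2%, against 30.9% of the other IDR peaks) were mostly in promoters too. Of them 38 lay in promoters, with a median offset of -58.5 bp, and 14 held GAGAG, against 27 of the other 449 members. They were chosen by GC, so these values describe them only. The strongest were at lawc (rank 11), Syp (21), moody (49), lncRNA:CR46006 (55) and lncRNA:CR43651 (59), followed by Smg5 and the cell cycle factor gene E2f1. The highest GC of any member was 69.3%, at the promoter of Dll, a limb patterning gene (rank 116, signal 1708.4). The lowest was 13.9%, at Ucp4A and Glyp.

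Promoters of cytosolic ribosomal protein genes contributed to that GC-rich group. A ribosomal protein gene was nearest to 18 members, all in promoters, which averaged 45.3% GC (SD 10.5) with a median offset of -36 bp. The other 347 promoter members averaged 30.6% (SD 9.50) at -129 bp. Of these 18, 10 exceeded 45% GC. All 18 ranked worse in replicate 1 than in replicate 3, which was true of 202 of all 500 members. The median ranks of the 18 in replicates 1, 2 and 3 were 567.5, 388.5 and 215.5, while the medians over all 500 were 249.5, 248.5 and 252.5. Rank was worse in replicate 1 than in replicate 3 for 26 of the 51 members over 45% GC, and for 44 of the 144 under 25%.

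**Figure D5:**
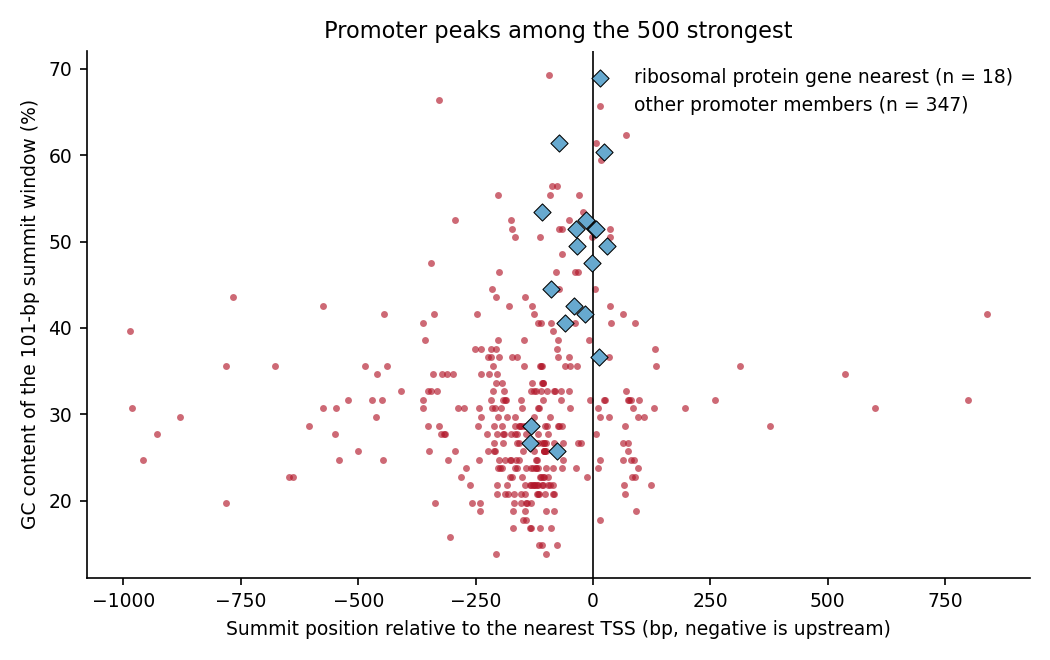
GC content of the 101-bp summit window against summit position relative to the nearest TSS for the 365 promoter members, with the 18 nearest to a ribosomal protein gene as blue diamonds. Most red points lie 50 to 250 bp upstream at under 40% GC, while most diamonds lie above 36% and within 100 bp of the TSS.

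The X chromosome held more of the 500 than of the rest. It carried 136 members (27.2%, 23.3% to 31.3%), against 21% (20% to 22.0%) of the other IDR peaks and 21.4% over all 6896. Of the 500 peaks ranked next after the members, 27% lay on X, so this share was not particular to the members. The replicates gave 27.6% ± 1.06 in their 500 strongest and 21.2% ± 0.338 in the rest (SD, n = 3), higher in 3 of 3. Per Mb, X held 5.78 members, 2L 3.96, 3R 3.34, 3L 3.17 and 2R 2.97. The other IDR peaks were also densest on X, with 57.0 per Mb against 44.2 (2L) to 50.6 (2R) on these autosome arms. No member lay on chromosome 4, whose strongest IDR peak, near lncRNA:CR43437, ranked 793 (signal 691.5). The other IDR peaks had 47 there (0.735%), and 0 of 500 allows a share of up to 0.735%, so a difference was not detectable. The summits of promoter members lay a median of 175 bp upstream on X and 119 bp upstream on the autosomes, against 40.5 and 30 bp upstream in the other IDR peaks. On X, 59.6% of members lay in promoters, against 78% of members on the autosomes, and the GC at their summits averaged 32.6% and 30.8%. The other IDR peaks had the same direction, with 64.3% in promoters on X and 74.9% on the autosomes. The GC at their summits averaged 39.5% and 39.3%. The strongest members on X, 2L, 3L, 3R and 2R were at Sptr, CG11050, CG14100, mRpS10 and mRpL41, the last with a signal of 5311.8.

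A few stretches held several members. Of 1342 bins of 100 kb, 355 held a member, 102 held 2 or more and 5 held 5 or more. The fullest was X:8400001-8500000 with 9 members among 38 IDR peaks, and the next 4 held 5 each. That bin contains the chorion gene cluster of X, a set of eggshell genes that is known to be amplified in follicle cells of the ovary. From 10 kb before to 10 kb after its 5 chorion genes (X:8470888-8483311) lay 21 IDR peaks, 7 of them members. In order along the chromosome these were at Sptr (rank 2), Cp7Fb (99), Cp36 (405), Cp38 (338), lncRNA:CR43834 (439) and CG33181 (298 and 66). The promoter peaks of Cp36 and Cp38 had 56.4% and 52.5% GC. The chorion cluster of 3L (3L:8726791-8732599, 4 genes), which is also known to be amplified, had no IDR peak within the same margin. DNA copy number was not measured here, and the region was singled out after its values were seen. Without that bin, X held 25.9% of the remaining 491 members.

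Several genes carried more than 1 member in their body or the 1 kb upstream. There were 31 such genes, and 6 carried 3 or more: CHES-1-like, a forkhead-type transcription factor gene, with 5 (ranks 30, 75, 111, 254 and 326), and Atat, CG33223, lncRNA:CR44619, spen and tai with 3 each. CG33223 spans chorion genes, and its 3 members are the peaks of Cp7Fb, Cp36 and Cp38. The spen gene, which encodes a large RNA-binding protein, had 1 member in an intron and 2 in 5′ untranslated sequence, and tai, a steroid receptor coactivator gene, had 2 in introns and 1 at a promoter. In all, 700 of 18277 annotated genes (3.83%) carried a member and 6864 (37.6%) any IDR peak, so 10.2% of genes with an IDR peak carried a member. Neighbouring genes often share a peak. Of the 365 promoter members 193 lay in the promoter of 1 gene, 156 of 2, 12 of 3 and 4 of more, and 162 (44.4%, 39.2% to 49.6%) had TSSs on both strands, against 40.4% of the other promoter peaks.

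Against those shares, genes of the translation machinery differed among themselves. Of 87 cytosolic ribosomal protein genes, 21 (24.1%) carried a member and 83 an IDR peak. The 4 strongest were RpL24 (signal 2021.3), RpL32 (1373.6), RpS25 (1312.1) and RpL34b (1299.2), and the weakest was sta, the last of the 500. RpS25, RpL13 and RpS28b lay nearer the TSS of another gene. Of 75 mitochondrial ribosomal protein genes 7 (9.33%) carried a member and 61 an IDR peak, with mRpL41 at rank 6, mRpS10 at 9, mRpS23 at 19 and mRpL23 at 82. Translation factors had 4 of 58 (eIF2Bbeta, which shares the Ugalt peak, eIF6, eIF4EHP and eEF1gamma) and aminoacyl-tRNA synthetases 2 of 33 (SerRS and LeuRS-m). The mRpS23, eIF6, eIF4EHP and LeuRS-m peaks lay nearer the TSS of another gene. Among genes with an IDR peak, 25.3% of the cytosolic and 11.5% of the mitochondrial ribosomal protein genes carried a member. For translation factors and synthetases it was 9.30% and 7.14%, against 10.2% over all genes with an IDR peak. None of 48 proteasome genes carried a member, although 27 carried an IDR peak, and only ND-39 of 86 genes of the respiratory chain and ATP synthase did, of 55 with an IDR peak. The ND-39 peak lay nearest to the TSS of ZnT77C. A further 6 lists held no gene with a member, but also few with any IDR peak: 5 of 32 snRNA, 34 of 260 microRNA, 8 of 186 chemosensory receptor, 2 of 124 cuticle protein, 3 of 9 cuticle pigmentation and 1 of 8 Hox genes. The absence of members from these lists was not tested against the share over all genes, and 7 symbols of the pigmentation list had no match.

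Genes for insulator and chromatin architecture proteins had the highest share among the 33 lists, 7 of 16 (43.8%), with 12 carrying an IDR peak. They were Chro (rank 20), Trl (88, in an intron), Cp190 (101), pzg (183), psq (314, in an intron), Dref (380) and mod(mdg4) (440). Trl encodes the GAGA factor, Dref the factor that binds DRE, and psq encodes Pipsqueak, after which the DNA-binding domain of Bab1 is named. The Chro peak lies in the promoters of both Chro and Ssl1, the Dref peak in those of both Dref and RpL13, and the mod(mdg4) peak was one of those missing from replicate 3. The Cp190 and pzg peaks lay nearest to the TSSs of CG4338 and CG12974. Of 16 genes for BTB factors 4 carried a member, and all 4 (Trl, Cp190, psq and mod(mdg4)) are in the list just described. General transcription factors had 5 of 34 (14.7%), with 28 carrying an IDR peak: Trf2 (rank 11), Ssl1 (20), Taf5 (206), Bdp1 (234) and Brf (323). Each of these peaks lay nearest to the TSS of another gene: lawc, Chro, Pex6, CG6565 and sds22.

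Enzyme and tissue lists of 10 to 36 genes had 1 to 3 genes with a member. Of 12 glycolysis genes 3 carried one, Gapdh2 (rank 4), Hex-A (34) and Eno (69), all with 23.8% GC and summits 162, 194 and 202 bp upstream. Of the 12 pteridine genes only Sptr did. Among 10 clock genes cry (rank 315), sgg (356) and Pdp1 (441) carried one. Heat shock and chaperonin genes had Hsp27 (56), Hsp83 (132) and Hsc70-5 (231) of 36. Neuronal genes had elav (47) of 25 (4%) and leg and antenna genes Dll (116) of 25 (4%), near the 3.83% of all genes. Ovary genes had orb (446) and pum (452) of 23 (8.70%), both nearest to the TSS of another gene. Genes with any IDR peak numbered 3, 7 and 11 in these lists, in that order. They numbered 11 in the glycolysis, 7 in the pteridine, 7 in the clock and 20 in the heat shock and chaperonin list. Of 257 snoRNA genes 12 (4.67%) carried a member and 64 any IDR peak. The members were 8 distinct peaks, the 4 strongest nearest to mgr, RpL30, RpL17 and RpL14, so that snoRNA and host gene cannot be told apart. Of 295 tRNA genes 3 (1.02%) carried a member, at 2 peaks, next to tRNA:Tyr-GTA-1-8 and lama, and 91 carried any IDR peak.

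In other lists 1 to 3 genes each carried a member. These were Polr2B of 30 RNA polymerase subunit genes, MED30 of 29 Mediator genes, U2af50 of 33 splicing genes and E2f1 of 47 cell cycle genes. Vesicle transport had alphaCOP, Vps33B and Sec15 of 66, V-ATPase had Vha16-5 and Vha100-2 of 33, and autophagy had Atg2 and Atg12 of 20. The shares in these lists ran from 2.13% to 10%, against 3.83% of all genes. The summit lay nearest to the gene's own TSS only for Polr2B, E2f1 and alphaCOP.

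Of the 20 members ranked 21 to 40, 18 lay in promoters, which held 73.0% of the 500 and 72.7% of all IDR peaks. The exceptions were an intron of Tlk and an intron of ush, nearest to the TSS of cbt. Signals of these 20 ran from 2678.4 at Mal-A5, a maltase gene, to 3476.0 at Syp. Metabolic and transport genes were among them: SLC5A11 (3467.6), a sodium-coupled solute transporter gene, aay (2988.6), which encodes phosphoserine phosphatase, Hex-A (2933.7), the hexokinase gene, Oatp30B (2725.6), an organic anion transporter gene, and Best2 (2679.7), a bestrophin channel gene. Kinase genes among them were Tlk (3128.5), gish (3004.3), a casein kinase gene, and Lk6 (2906.3). Others lay at CG1635 (3303.1), CG18549 (3273.7), Tcs5 (3191.5), lncRNA:CR31044 (3139.5), the ush intron (3024.4), Fkbp14 (3014.5), lncRNA:CR43287 (3005.4), lncRNA:CR44619 (3000.8), CG10165 (2775.4) and Hmg-2 (2702.1). GC exceeded 40% at Syp, lncRNA:CR31044 and Hmg-2 and was at most 33.7% at the other 17. Ranks in the replicates ran from 14 to 57 for these 20.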

How the data were processed

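Bab1-GFP was mapped in 3 biological replicates of 1 group. The deposited signal values, from the authors' peak caller, compare peaks within a list only. The deposited −log10 q values were not used for ranking. The file listings name 1 control library, not used here. No aligner, caller or IDR cutoff is given in the sources used here. Nothing states that the replicates came from separate cultures.

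IDR peaks were ranked by signal (all 500 are also the strongest of the pooled list) and annotated with Ensembl release 115 (18277 genes, transposons left out) in the order promoter, 5′ untranslated, coding, 3′ untranslated, other exon, intron, intergenic. Sequence came from the RefSeq release of dm6. The top list of a replicate is its 6896 strongest peaks, and the own 500 strongest were compared with the rest of it. A replicate rank is that of the best peak overlapping by at least 1 base. Shares carry exact Clopper-Pearson 95% intervals, which cover counting error only, since neighbouring peaks are not independent. Python 3.11.15, pandas 2.3.3 and scipy 1.17.1 were used, and the code was tested on simulated data. Members, gene lists and patterns were chosen with earlier results of these data known, and GC, offset, the 25-member word minimum, dense bins and the ribosomal protein ranks after seeing the data. Members are named as the 5 strongest, by class, pattern and chromosome, by list (all up to 6, otherwise 4 or more), ranks 21 to 40, those at the threshold and the 5 most spread over replicates. The last 3 genes of the insulator list, Syp to Smg5 among GC-rich members, the GC extremes and the genes with several members were named after their values were seen. In the lists, 16 symbols had no match, and the results of 2 lists are not reported here. Alternatives are given in the closing section.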

Additional observations from a re-analysis of the deposited data

How the results depend on the processing

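The promoter share of 73.0% became 78.4% with the 250 strongest peaks, 72.4% with the 1000 strongest and 73.8% with the 500 of best mean replicate rank. With narrower promoters (250 bp to each side) it was 59.8%, and that of the other IDR peaks 66.5%, so members were then lower; the cause was not tested. The X share became 26.0% with the 250 strongest, and 25.9% without the fullest 100-kb bin. DRE and the Motif 1 core lay in 3.8% and 1.4% of members within 100 bp to either side of the summit (8.05% and 6.58% of the others), and in 7% and 4.2% over whole peaks. GC at the summit became 34.6% within 100 bp to either side and 38.8% over whole peaks, against 39.5% and 39.8% in the other IDR peaks, since the A/T-rich stretch is narrower than the peak. The median summit offset was -131 bp for the 250 strongest, -112 bp for the 1000 strongest, -119 bp by mean replicate rank and -111 bp with the narrower promoters (-18 bp in the others). The share found in all replicates became 99.2% for the 250 strongest, 100% by mean replicate rank or by any overlap, 80% at a reciprocal overlap of at least 50% and 68.6% within the 500 strongest of each replicate. Leaving out 1 replicate at a time gave ranges of 73.0% to 73.0% in promoters, 27.2% to 27.6% on X, 1.6% to 1.6% with DRE, 0.2% to 0.2% with the Motif 1 core, 31.3% to 31.5% GC, -125 to -125 bp and 98.0% to 100% found; only replicate 3 moved the last. The IDR list and its signal values come from the pooled replicates and were not called again, so they still held the reads of every replicate. These ranges therefore cannot show how far the results rest on 1 replicate. The series has 1 group, so no groups of samples could be paired. The replicate comparisons in the report are paired differences within each replicate. The GC, offset, any-overlap and bin alternatives were added after seeing the data. Depth is unknown, and the number of peaks limits shares near 0.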
